A study of Mus musculus with 2 samples.

Results

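The Sox and forkhead genes encode 2 families of DNA-binding transcription factors. Members were the protein-coding genes of the mouse annotation (GENCODE release M21, genome build GRCm38, also called mm10) whose symbol is Sox or Fox in the families' systematic form, without Sox8 and Sox10, which gave 61 of 21951 genes: 17 Sox genes and 44 forkhead genes. The RNAs of these genes were examined in Prrc2a RIP-seq, which sequences the RNA pulled down with the RNA-binding protein Prrc2a, studied there as a reader of the RNA modification m6A. The assay was performed on whole brain of wild-type mice, which were C57BL/6J males aged 4 weeks, in a single condition with 2 replicates, and the protocol describes 3 brains. No genotype or treatment was compared in these lists, and whole-brain lysate does not show which cells an RNA came from. Fewer cells of a type and less RNA per cell cannot be told apart in such material.

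Sox proteins bind DNA through a high mobility group (HMG) box and bend it, usually together with a partner factor, and forkhead proteins bind through a winged-helix fold called the forkhead domain. In the nervous system, SoxB1 factors keep neural progenitors in their dividing state, SoxC factors act in newborn neurons, SoxD factors act in cortical neurons and in precursors of oligodendrocytes, and Sox9 acts in glial specification and in astrocytes. Forkhead factors include FoxP in striatal and cortical neurons and FoxO, the factors that insulin signalling drives out of the nucleus through the kinase Akt.

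The deposited lists hold the position of each peak together with a fold enrichment (immunoprecipitate over control, not logged), for 18129 peaks in replicate 1 (median 2.84, range 1.26 to 22.2) and 18671 in replicate 2 (median 2.63, range 1.22 to 55.5). Shared peaks were those of replicate 1 with an overlap of 1 bp or more with replicate 2. Where several replicate 2 peaks overlapped a shared peak, the replicate 2 fold given for it is that of the largest overlap. The lists give no read totals, so the depth is unknown, and the absence of a peak and too few reads cannot be told apart. The lists carry no strand. Peaks measure enrichment and not expression, and they did not serve to check the tissue label. A shared peak lay over exons of 3 of 20 marker genes of brain cell types (Map1b of neurons, Slc1a2 of astrocytes and Csf1r of microglia), against 12.0% of all protein-coding genes. The 2 endothelial and the 2 ependymal and choroid plexus markers had no peak in either replicate, and neither had 4 genes of other tissues (Alb, Myh6, Ins2 and Umod).

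The question asked of each gene was whether its RNA carried Prrc2a peaks in both replicates, and where. Shared peaks lay over exons of 16 of the 61 genes, or 26.2%, against 12.0% of all protein-coding genes. They were found in 7 of the 17 Sox genes, namely Sox1, Sox4, Sox5, Sox6, Sox9, Sox11 and Sox21, and in 9 of the 44 forkhead genes, namely Foxc1, Foxj2, Foxk1, Foxk2, Foxn2, Foxn3, Foxo1, Foxo6 and Foxp1. An exonic peak in either replicate was found in 27 of the 61, or 44.3%, against 24.0% of all protein-coding genes. Each replicate on its own had one in 22 of the 61, where of the 21951 protein-coding genes 3617 had one in replicate 1 and 4619 in replicate 2. The spread over replicates of that count was 0 (SD, n = 2), although 5 of the 22 in each replicate had no exonic peak in the other. One further gene, Foxo4, had a peak in each replicate at different places, 5 genes had exonic peaks in replicate 1 alone, 5 in replicate 2 alone, and 34 had none.

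**Figure D1:**
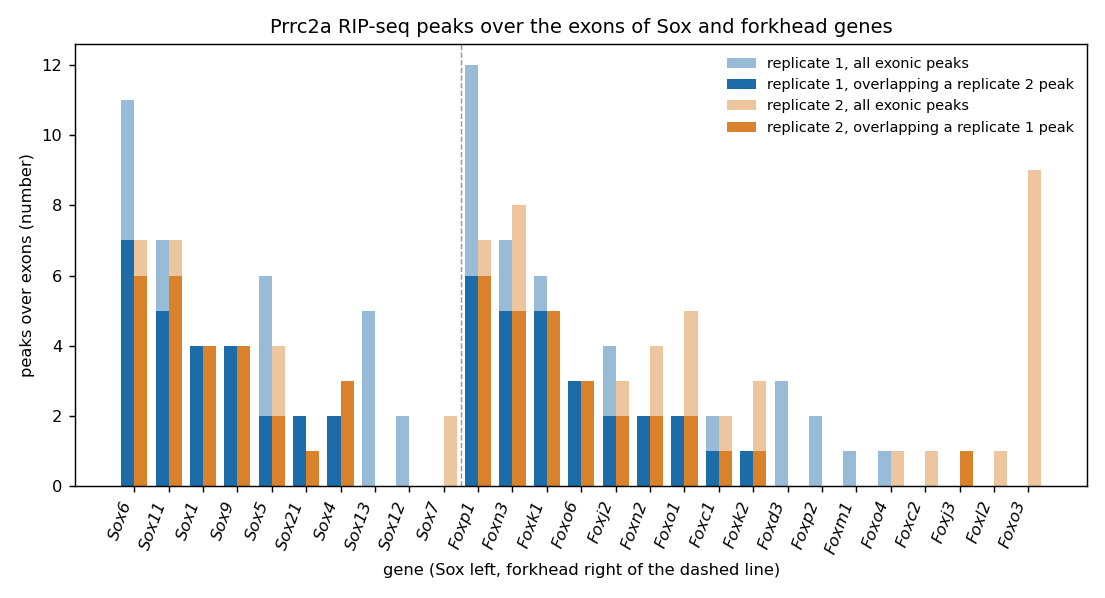
Number of peaks over exons (vertical axis) for the 27 genes with any peak, with replicate 1 in blue and replicate 2 in orange, and the dark part of each bar counting peaks that overlap a peak of the other replicate. Counted in replicate 1, Sox6 and Foxp1 carried the most shared peaks (7 and 6), Sox13 had peaks in replicate 1 alone and Foxo3 in replicate 2 alone, and the dark bar of Foxj3 is an exonic replicate 2 peak whose replicate 1 partner lay in an intron.

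Exonic length differed in its median between the genes with and without a shared peak. The annotated exons of the 16 covered a median of 6600.5 bp, against 4312 bp for the 11 genes with a peak that was not shared and 2503.5 bp for the 34 with none. The same order held for all protein-coding genes, with 6865 bp where a peak was shared and 3182.5 bp where none was. Single genes departed from this order, as Foxp2, the longest of the 61 with 16346 bp, had no shared peak and Foxo6 with 2615 bp had 3. The part of exonic length in the counts above was not tested. Many of these genes have no introns: the main transcript had 1 exon in 22 of the 61 (36.1%), and in 5 of the 16 with a shared peak (31.3%, against 6.12% of all protein-coding genes with one).

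Sequences under some of these peaks are shown first, some beside the matching bases of relatives. Peaks over closely related genes lay over closely related bases in some cases and not in others. Windows under peaks were chosen for their GGAC or GGACT within much wider peaks, so they do not show which bases Prrc2a bound. Each is coding sequence of GRCm38, written 5′ to 3′ on the strand of the gene, with 20 bases on either side of a GGAC or GGACT. Capitals mark these letters, the core of the sequence in which m6A is usually placed, or the letters at the same place in a relative. The first set sits just after the HMG box. The Sox1 window (chr8:12396736-12396779, + strand) lay under peaks of both replicates, with folds of 1.61 and 1.91, and so did the Sox21 window (chr14:118235346-118235389, - strand), with folds of 6.10 and 6.32. Their relatives Sox3 (chrX:60892733-60892776, - strand), Sox14 (chr9:99875395-99875438, - strand) and Sox2 (chr3:34650767-34650810, + strand) had no peak there. Sox3 matched the Sox1 window in 43 of 44 bases and kept the GGAC, Sox2 matched it in 36 without the GGAC, Sox21 in 32 and Sox14 in 27.
Sox1: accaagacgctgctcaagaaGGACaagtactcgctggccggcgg
Sox21: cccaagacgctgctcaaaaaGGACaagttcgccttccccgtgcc
Sox3: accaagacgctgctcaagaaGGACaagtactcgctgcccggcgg
Sox14: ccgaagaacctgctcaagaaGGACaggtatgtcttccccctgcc
Sox2: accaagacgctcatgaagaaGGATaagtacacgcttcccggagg

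The second set lies near the start of the coding sequence of FoxO genes, where the first GGACT of Foxo1 began at CDS base 36 and that of Foxo6 at CDS base 42. The Foxo1 window (chr3:52268817-52268861, + strand) lay under a shared peak with folds of 1.66 and 3.11, and the Foxo6 window (chr4:120287187-120287231, - strand) under one with folds of 2.31 and 3.46. The best match in Foxo3 (chr10:42275350-42275394, - strand) lay under a replicate 2 peak alone, with a fold of 1.58, and the match in Foxo4 (chrX:101254860-101254904, + strand) under none. Foxo6 matched the Foxo1 window in 33 of 45 bases, Foxo3 in 29 and Foxo4 in 27, and neither of the last 2 had GGACT there.
Foxo1: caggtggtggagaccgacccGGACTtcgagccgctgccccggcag
Foxo6: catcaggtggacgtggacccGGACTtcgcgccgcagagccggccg
Foxo3: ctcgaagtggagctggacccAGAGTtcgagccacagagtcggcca
Foxo4: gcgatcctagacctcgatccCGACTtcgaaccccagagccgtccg

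The third set shows a coding GGACT under shared peaks of 4 other genes. The Sox4 site began at CDS base 1239 of the single exon (chr13:28951759-28951803, - strand), near the end of the coding sequence. The Sox11 site began at CDS base 1143 (chr12:27341242-27341286, - strand), also near the end. Under the same peaks, other coding GGACTs began at CDS bases 60 and 695 in Sox4 and 117 and 522 in Sox11. The place near the end thus reflects which site was chosen to be shown. The Sox9 site began at CDS base 84, in the first exon (chr11:112782648-112782692, + strand), and the Foxn3 site lay among the forkhead codons, from CDS base 384 (chr12:99388496-99388540, - strand).
Sox4: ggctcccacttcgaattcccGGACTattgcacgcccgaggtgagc
Sox11: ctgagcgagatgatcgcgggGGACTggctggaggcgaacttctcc
Sox9: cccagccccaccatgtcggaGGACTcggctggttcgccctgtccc
Foxn3: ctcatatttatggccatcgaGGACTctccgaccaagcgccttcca

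Among the SoxB genes, Sox1 and Sox21 carried shared peaks and Sox2, Sox3 and Sox14 had no exonic or intronic peak in either replicate. Sox1, a factor of neural progenitors, held 4 peaks in each replicate, and all 4 were shared. The highest by its mean lay in the 5′ UTR (chr8:12395649-12396316, 668 bp), with a fold of 3.03 in replicate 1 and 2.91 in replicate 2. The peak in the coding sequence had folds of 1.61 and 1.91, the peak over the stop codon 1.81 and 2.11, and the peak farther into the 3′ UTR 2.29 and 3.01. The peak centred in the coding sequence was thus the lowest of the 4 in both replicates. Bases under peaks of both replicates made up 38.1% of its exons and held 11 of its 16 GGACs.

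Sox21, which counteracts SoxB1 factors as progenitors leave the cell cycle, had the highest fold of any shared peak of the 61 genes in replicate 1. That peak (chr14:118233949-118237034, 3086 bp) had a fold of 6.10 in replicate 1, above 96.5% of the peaks of that replicate, and its replicate 2 partner of 3459 bp had a fold of 6.32, above 97.2%. A second replicate 1 peak, of 261 bp and with a fold of 3.94, fell in the same replicate 2 peak. Together they placed 86.4% of the exonic bases and 100% of the coding sequence of Sox21 under both replicates, with 17 of its 18 GGACs. The larger peak also lay over exons of Gm4675, a lincRNA on the opposite strand. The larger peak was also the one shared peak of the 61 genes with a fold of at least 4 in both replicates, or 1 of 53 (1.89%), against 6.45% of the shared peaks of all protein-coding genes.

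The SoxC genes are single-exon genes whose products turn on neuronal genes in young neurons. Sox11 carried 7 exonic peaks in each replicate, of which 5 in replicate 1 were shared. Its longest peak (chr12:27339912-27342730, 2819 bp) covered the whole coding sequence, from the start codon to past the stop codon, with folds of 2.88 and 2.30. A second replicate 2 peak over it had 2.94. The other 4 shared peaks lay in the 3′ UTR, with folds in replicate 1 and replicate 2 of 3.64 and 4.31 (chr12:27339473-27339793, 321 bp), 3.46 and 3.09, 4.13 and 2.94, and 1.98 and 2.12. Of these 5, 3 were higher in replicate 1, when the longest is read by its larger overlap. In Sox4 a peak of 3431 bp (chr13:28950387-28953817) covered the whole coding sequence with folds of 1.96 and 2.02, and a peak in the 3′ UTR (chr13:28949077-28949956, 880 bp) had folds of 3.43 and 2.06. A second replicate 2 peak over the wide peak had 2.31. Both shared Sox4 peaks also lay over exons of Gm26735, a lincRNA on the opposite strand. Sox12, the remaining SoxC gene, had peaks of 1.93 in the coding sequence and 1.57 in the 3′ UTR in replicate 1 and none in replicate 2.

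Peaks of both replicates covered the whole coding sequence of Sox4, Sox11 and Sox21, and in the other 13 genes with a shared peak at most 47.0% of it (Sox9). In replicate 1, 4 of the 53 shared peaks were at least 2500 bp wide, in these 3 genes and in Foxk1, which is 7.55% against 3.24% of the shared peaks of all protein-coding genes. Codons of the DNA-binding domain were located in the translated main transcript as a stretch between conserved residues at either end. This stretch was 210 bases of HMG box in each of these Sox genes. In the forkhead genes with a shared peak it was 162 or 177 bases. There it ended within the forkhead domain, so later codons of that domain were not marked. All 210 bases lay under both replicates in Sox4, Sox11 and Sox21, 53.8% in Sox9, 22.4% in Sox1, and none in Sox5 and Sox6. Among forkhead genes all of the marked bases were covered in Foxn3 and 54.9% in Foxn2, and none in Foxc1, Foxj2, Foxk1, Foxk2, Foxo1, Foxo6 and Foxp1.

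**Figure D2:**
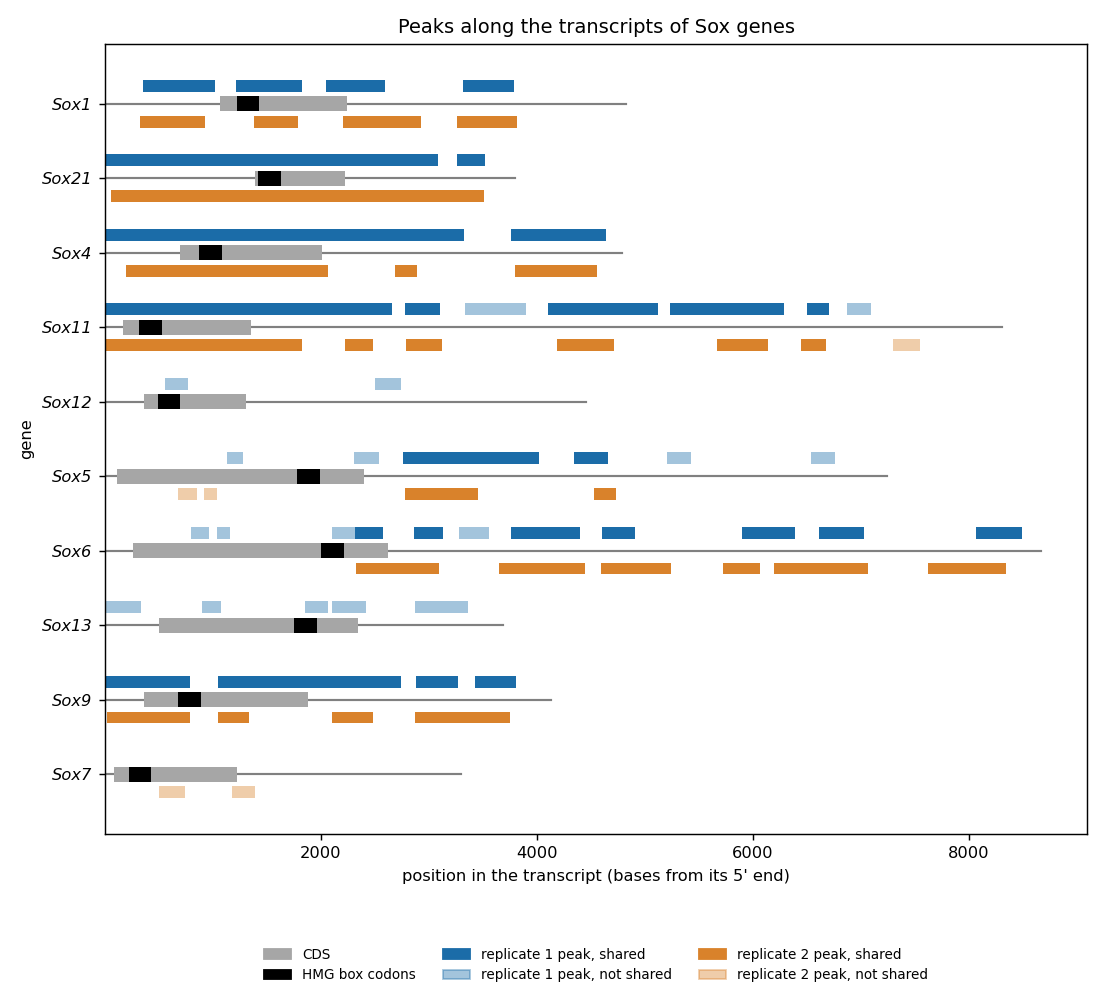
Peaks along the main transcript of 10 Sox genes, in bases from the 5′ end, with the coding sequence as a grey box, the HMG box codons in black, replicate 1 peaks above in blue and replicate 2 peaks below in orange (pale where not shared). Single peaks span the coding sequence of Sox21, Sox4 and Sox11, whereas those of Sox5 and Sox6 that are shared lie near the end of the coding sequence or past it.

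The SoxD genes Sox5 and Sox6, which pair with each other and modulate the activity of other Sox proteins, had nearly all of their shared peaks in long 3′ UTRs. Sox6 held 11 exonic peaks in replicate 1 and 7 in replicate 2, of which 7 in replicate 1 were shared, the most of any of the 61 genes as counted in that replicate. With an overlap of at least 50% of both peaks, 1 of the 7 remained. The highest of the 7 by the mean of both replicates (chr7:115475135-115475780, 646 bp), 1464 bases past the end of the coding sequence, had a fold of 2.84 in replicate 1 and 7.13 in replicate 2. The next peak downstream had folds of 1.74 and 4.64. The peak nearest the 3′ end ran the other way, with 3.62 and 1.90, and was the one of the 7 that was higher in replicate 1. Only one shared Sox6 peak had its midpoint in the coding sequence (chr7:115476965-115477234, 270 bp), with folds of 3.03 and 4.27, and the replicate 2 peak it overlapped also covered the neighbouring peak in the 3′ UTR.

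Sox5 had 6 exonic peaks in replicate 1 and 4 in replicate 2, and 2 were shared, both in the 3′ UTR. The larger (chr6:143831644-143832907, 1264 bp) had folds of 3.28 and 5.88, and the other (chr6:143831004-143831319, 316 bp) 1.98 and 3.47, so both were higher in replicate 2. Coding peaks of Sox5 were called in each replicate and did not overlap: one in replicate 1 with a fold of 2.46, and 2 in replicate 2 with 2.43 and 2.84. Sox13, the remaining SoxD gene, had 5 exonic peaks in replicate 1 and none in replicate 2. The one at its 5′ end (chr1:133424041-133424421, 381 bp) had a fold of 7.54, above 98.7% of the peaks of replicate 1, while the other 4 ran from 2.05 to 2.73.

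Sox9, the SoxE gene among the 61, held 4 peaks in each replicate and all 4 were shared. The peak over the start codon (chr11:112782239-112783022, 784 bp) had folds of 2.30 and 4.84, and the peak over the stop codon (chr11:112784625-112786368, 1744 bp) 2.44 and 3.31. A second replicate 2 peak over the latter had 1.87, below its replicate 1 fold. The remaining 2 shared peaks lay in the 3′ UTR with folds of 2.73 and 2.11 in replicate 1, under a single replicate 2 peak with a fold of 2.71. Of its exonic bases, 52.0% lay under both replicates, and these held 13 of its 15 GGACs. Of the SoxF genes, which act in blood vessel cells, Sox7 had peaks of 6.42 in the coding sequence and 4.54 in the 3′ UTR in replicate 2 and none in replicate 1, and Sox17 and Sox18 had none. Sox15 and Sox30 also had none.

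The FoxO genes all had at least 1 peak, but 2 of the 4 had a shared one. Foxo6, known for its expression in the hippocampus, held 3 peaks in each replicate and all 3 were shared. Their folds were 2.31 and 3.46 over the start codon (chr4:120286999-120287500, 502 bp), 2.73 and 2.84 in the coding sequence (chr4:120268622-120269265, 644 bp) and 2.52 and 3.62 over the stop codon (chr4:120267286-120268041, 756 bp). Each was higher in replicate 2. They placed 42.2% of its exonic bases and 13 of its 19 GGACs under both replicates. Foxo1 had 2 peaks in replicate 1 and 5 in replicate 2, and both of the former were shared. Folds were 1.66 and 3.11 over the start codon (chr3:52268725-52269268, 544 bp), where exons of the antisense RNA Gm20402 also lie, and 1.88 and 2.96 within the coding sequence (chr3:52345264-52345716, 453 bp).

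Foxo3 differed from Foxo1 and Foxo6 in its replicates. It had 9 exonic peaks in replicate 2, with folds from 1.58 to 2.58 in 8 of them and 5.01 in a peak of 200 bp that lay mostly in an intron, and none in replicate 1. At least 5 exonic peaks in 1 replicate and 0 in the other were found in 2 of the 61 genes, Foxo3 and Sox13, against 0.497% of all protein-coding genes. They went in opposite directions. Foxo4 had a peak of 2.37 across its 5′ end in replicate 1 and one of 2.45 in the coding sequence in replicate 2.

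FoxP1 and FoxP2 are known from speech and language disorders and are abundant in striatal neurons. Foxp1 carried 12 exonic peaks in replicate 1 and 7 in replicate 2, and 6 were shared. In the 3′ UTR lay 3, with folds of 2.36 and 2.91 (chr6:98926350-98926656, 307 bp), 1.42 and 3.53 (chr6:98926838-98927932, 1095 bp) and 1.80 and 2.79 (chr6:98928408-98929915, 1508 bp). A second replicate 2 peak over the 1508 bp peak had 2.08. All 3 shared peaks were higher in replicate 2. One covered the start codon, with 2.45 and 2.16, and the 2 most upstream ones were centred in introns and covered 393 and 72 exonic bp, with folds of 3.33 and 3.01 (chr6:99520770-99521715, 946 bp) and 1.93 and 2.45. The last of these also lay over an exon of Gm20696, a protein-coding gene model on the same strand. The replicate 2 partner of the 946 bp peak lay in an intron, so none of that peak's exonic bases lay under both replicates. Foxp2 had 2 exonic peaks, both in replicate 1: one in the 5′ UTR at the start of the gene (chr6:14901356-14901799, 444 bp), with a fold of 7.39 that exceeded 98.6% of the peaks of that replicate, and one of 1.94 in the 3′ UTR. Foxp3 and Foxp4 had no peak.

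FoxK1 and FoxK2 repress genes of autophagy and respond to insulin. Foxk1 had 6 exonic peaks in replicate 1 and 5 in replicate 2, and 5 were shared, all at or past the stop codon. The widest (chr5:142456987-142459568, 2582 bp) had a fold of 2.40 in replicate 1, and 2.40 in the replicate 2 peak that overlapped it most. A second replicate 2 peak over it had 2.21. The other shared peaks had folds of 1.56 and 2.21 over the stop codon, 1.67 and 2.36, 1.62 and 1.69, and 1.92 and 1.77. In Foxk2 a single shared peak (chr11:121307552-121307793, 242 bp) lay in the 3′ UTR with folds of 1.49 and 1.63. These were low, as 2.80% of all replicate 1 peaks and 6.48% of all replicate 2 peaks lay below them.

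FoxN2 and FoxN3 are forkhead proteins of a subfamily of repressors. Foxn3 held 5 shared peaks out of 7 in replicate 1 and 8 in replicate 2. Folds were 2.34 and 2.18 over the marked forkhead codons (chr12:99388307-99388783, 477 bp), 1.54 and 1.44 later in the coding sequence, and 2.11 and 2.71, 1.65 and 2.85, and 2.53 and 1.96 in the 3′ UTR. Foxn2 had a shared peak over part of the forkhead codons (chr17:88462758-88463148, 391 bp), with 3.04 and 2.68, and one over the stop codon, with 2.13 and 2.46. Foxn1 and Foxn4 had no peak.

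The remaining forkhead genes with a shared peak were Foxj2 and Foxc1. Foxj2 had one in the 5′ UTR (chr6:122819983-122820933, 951 bp), with folds of 2.60 and 2.54, which held 15 GGACs and also lay over exons of the antisense RNA Gm26826, and one in the 3′ UTR with 1.56 and 2.40. Foxc1, a factor of the meninges and of pericytes, had one over the stop codon (chr13:31808467-31808884, 418 bp), with 2.61 and 2.81. At least 5 shared peaks were found in 5 of the 61 genes, Sox6, Foxp1, Sox11, Foxk1 and Foxn3, against 2.01% of all protein-coding genes. With an overlap of at least 50% of both peaks none of the 5 kept as many, with 1, 3, 4, 1 and 3 in that order.

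**Figure D3:**
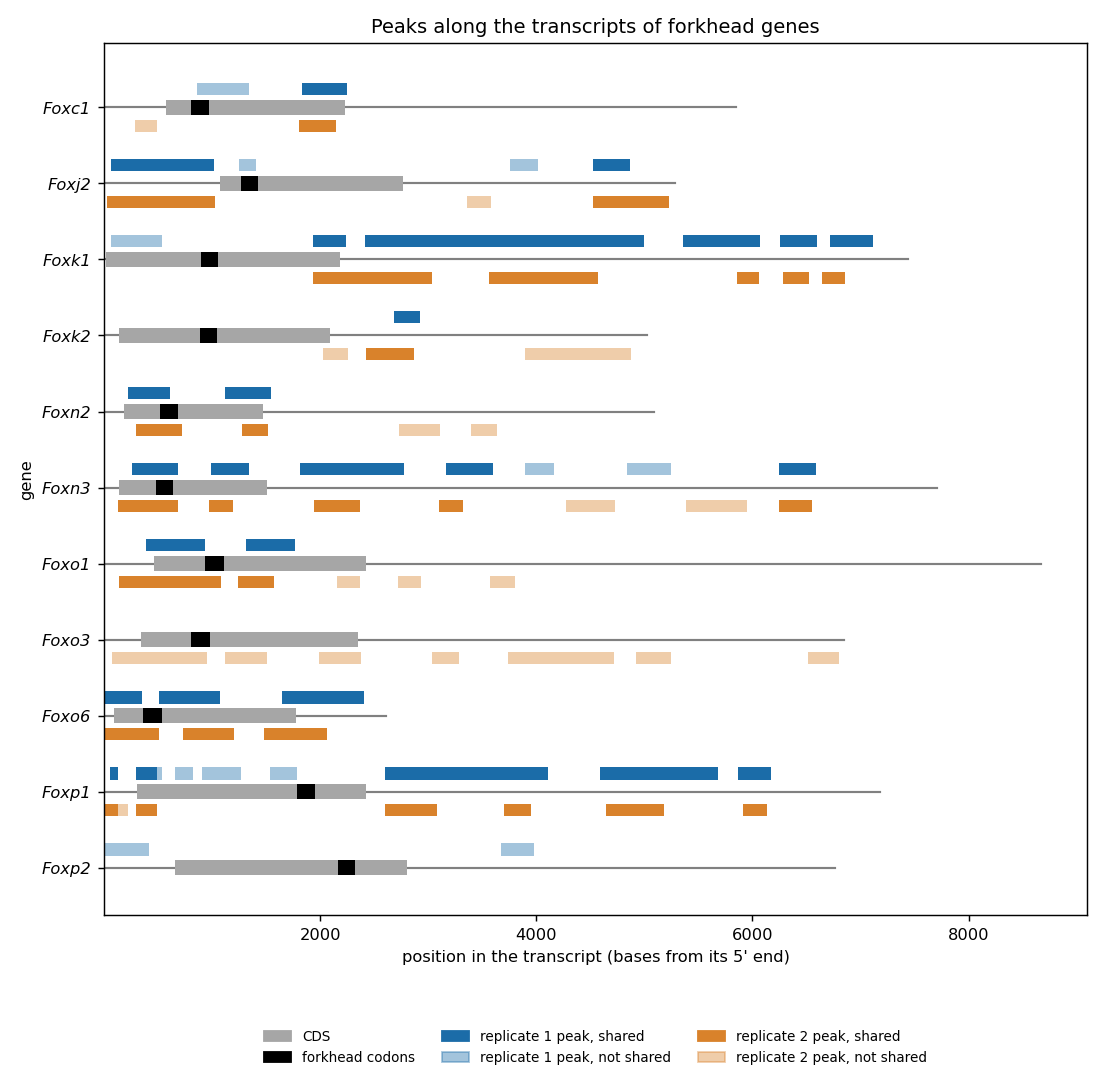
Peaks along the main transcript of 11 forkhead genes, in bases from the 5′ end, drawn as for the Sox genes, with the marked forkhead codons in black. The shared peaks of Foxk1 lie over or past the stop codon, and the peak over it has 247 of its 300 bases in coding sequence. Those of Foxo6 lie over the start codon, within the coding sequence and over the stop codon. Foxo3 shows replicate 2 peaks alone.

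Peaks in a single replicate were few in the other genes. In replicate 1, Foxd3, a factor of the neural crest, had 3 peaks with folds of 2.56 to 3.41, and Foxm1, a factor of dividing cells, had one of 3.50 in the coding sequence. In replicate 2, Foxc2 had a coding peak of 2.43 and Foxl2, a factor of the ovary and pituitary, a 5′ UTR peak of 3.43. Foxj3 had 1 exonic peak in replicate 2, and it overlapped a replicate 1 peak that lay in the intron. The 34 genes without a peak in exons had none in introns either. Among them was Foxj1, which drives motile cilia in ependymal cells and has 14 GGACs in its exons. Others were Foxn1, Foxn4, Foxp3, Foxp4, the Sox genes given above and all the FoxA, FoxB, FoxE, FoxF, FoxH, FoxI, FoxQ, FoxR and FoxS genes, with Foxd1, Foxd2, Foxd4 and Foxl1.

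Across the 61 genes, 89 exonic peaks in replicate 1 and 85 in replicate 2 gave 53 shared peaks as counted in replicate 1. The shared part was 59.6% of the former, against 61.3% for exonic replicate 1 peaks of all protein-coding genes, and 63.5% of the replicate 2 peaks, against 47.9%. Median folds were 2.32 in replicate 1 and 2.81 in replicate 2, close to the 2.27 and 2.81 of the 7317 shared peaks of all protein-coding genes. Peaks of Sox genes had medians of 2.77 and 3.14 (26 peaks) and those of forkhead genes 2.11 and 2.54 (27 peaks), and no test was made of that difference. The log2 ratio of replicate 1 to replicate 2 had a median of -0.25 (SD 0.49, n = 53 peaks), and 37 of the 53 peaks, or 69.8%, were higher in replicate 2, as were 71.3% for all protein-coding genes. Folds of the same peak in the replicates had a Spearman correlation of 0.379 over the 53 peaks, several of which shared a gene or a replicate 2 peak, and of 0.554 over the 7317. The log2 ratio ran from -1.41 to 0.93, and its SD over peaks is not the error of a difference between single peaks.

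**Figure D4:**
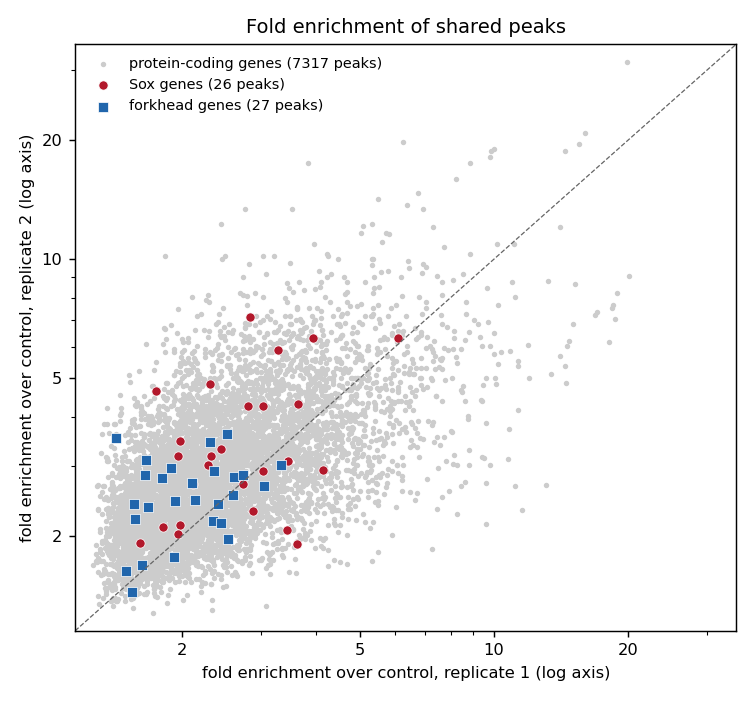
Fold enrichment over control in replicate 1 (horizontal) and replicate 2 (vertical), both on log axes, for shared peaks of Sox genes (red circles), forkhead genes (blue squares) and all protein-coding genes (grey), with equal folds on the dashed line. The 53 peaks lie within the grey cloud, mostly above the line, and the Sox21 peak with 6.10 and 6.32 is the one past 4 in both replicates.

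By their midpoint, 31 of the 53 shared peaks lay in the 3′ UTR (58.5%), 18 in the coding sequence (34.0%), 2 in the 5′ UTR and 2 in introns. The shared peaks of all protein-coding genes had the reverse order, with 50.7% in the coding sequence and 30.4% in the 3′ UTR. This reversal was lost with an overlap of at least 50% of both peaks, where 15 of 30 shared peaks lay in the coding sequence (50.0%) and 12 in the 3′ UTR (40.0%), against 2635 and 1186 of the 4749 such peaks of all protein-coding genes. The 3′ UTR share was 69.2% in Sox genes and 48.1% in forkhead genes, and 3′ UTRs were long in the genes with a shared peak, with a median of 3981 bp against 2648 bp over all protein-coding genes with one. The part of that length was not tested. A stop codon lay in 9 of the 53 peaks and a start codon in 7.

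**Figure D5:**
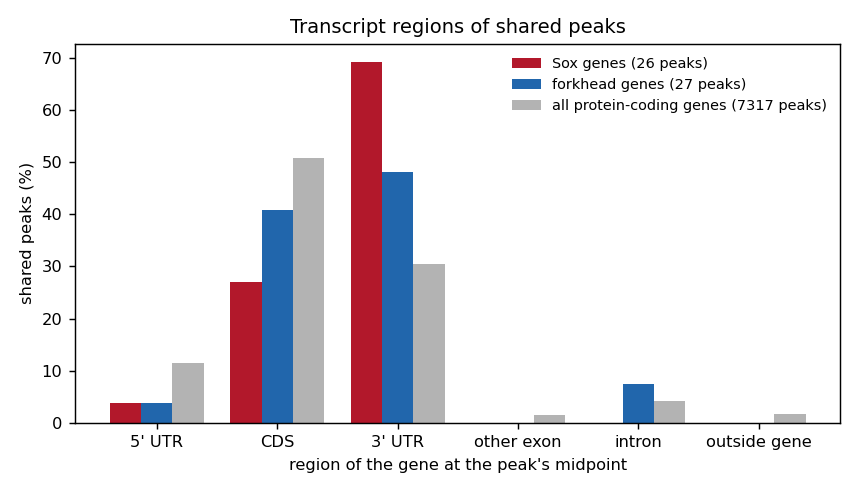
Percent of shared peaks (vertical axis) by the region of the gene at the peak's midpoint, for Sox genes in red, forkhead genes in blue and all protein-coding genes in grey. The 3′ UTR bar is the tallest for both families (69.2% and 48.1%), and the coding bar is for all protein-coding genes (50.7%).

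The letters GGAC, searched on the strand of the gene in the exonic bases of each peak, were present in 45 of the 53 shared peaks (84.9%), against 77.9% for all protein-coding genes. GGACT, which contains GGAC, was present in 25 (47.2%), against 43.0%. Peak lengths enter these shares, since the median exonic length was 429 bp in these genes and 376 bp in all. Per length, the bases under peaks of both replicates held 5.57 GGACs per kb in the 16 genes and the rest of their exons 3.36, and over all protein-coding genes with a shared peak the values were 4.80 and 3.57. Over the whole exonic length of the shared replicate 1 peaks, the values lay closer, with 4.88 per kb in these genes and 4.64 in all. The most in 1 replicate 1 peak were the 19 of the wide Sox11 peak, followed by 17 each in those of Sox4 and Sox21.

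Genes that act with these families were read in the same way. Of 19 other genes with an HMG box, 3 had a shared peak: Lef1, a nuclear partner of Wnt signalling (top folds 4.09 and 3.41), Cic, a repressor released by receptor tyrosine kinases (1.79 and 3.45), and Bbx (2.00 and 4.02). Of 8 POU factors, with which Sox proteins bind DNA as partners, 5 had one, namely Pou2f1, Pou3f1, Pou3f2, Pou3f3 and Pou6f1, with the most in Pou3f3, where 4 were shared with top folds of 3.27 and 3.06. Of 14 regulators of FoxO factors, 8 had one: the insulin and growth factor receptors Insr and Igf1r, their adaptors Irs1 and Irs2, the kinase subunits Pik3ca and Pik3r1, and the acetyltransferases Ep300 and Crebbp. Igf1r and Crebbp held 16 shared peaks each, more than any of the 61 genes, with top folds of 2.97 and 4.17 in Igf1r and 5.91 and 5.59 in Crebbp. The exons of these 2 genes cover 16791 and 13540 bp, against a median of 3299 bp for the 61. The part of length was not tested here. Akt1, Akt2, Sgk1, Sirt1, Skp2 and Usp7 had no peak in either replicate. These counts stand against the 12.0% of all protein-coding genes given above.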

How the data were processed

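Members and gene lists were chosen with earlier results of these data known. The authors trimmed reads with Cutadapt and Trimmomatic, aligned them to mm10 with TopHat, kept unique reads of mapping quality at least 20 and ran MACS2 separately on each replicate, with its default options except the fragment model and with an FDR limit. The submitters' processing notes name TopHat2 2.0.9 and MACS2 2.0.10. The value the authors deposited for each peak is its fold enrichment, a linear ratio over a control that the methods do not identify for this call. The lists hold no read depth, FDR, summit or strand.

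Overlaps, transcript regions (CDS taken before 3′ UTR and that before 5′ UTR where annotations disagree at a midpoint) and motifs were computed with Python 3.11.15, numpy 2.4.6, scipy 1.17.1 and pysam 0.24.0 from GENCODE M21 and the RefSeq copy of GRCm38, which is the build of the lists, and plotted with matplotlib 3.10.9. A peak over exons of several genes counted for each. The main transcript was the longest complete coding transcript with at least 90% of the gene's longest CDS. DNA-binding codons were found in 58 of the 61 genes, and not in Foxr1, Foxr2 and Sox30. All genes with a shared peak were named, with full values for the 12 with the highest mean fold and for a fixed list of brain-relevant genes. Values of a few genes of the lists are not reported here. With 1 condition and 2 replicates, no test was run. The functions recovered 14 of 14 quantities on simulated data.

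Alternatives were an overlap of at least 50% of both peaks, folds of at least 3 or 4, replicate 2 intervals, merged peaks, basic transcripts, 1 gene per peak, gene spans, each replicate alone, the region with the most bases, GGACT and a window of 50 bp around the midpoint.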

Additional observations from a re-analysis of the deposited data

How the results depend on the processing

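Of the 16 genes with a shared peak, 15 remained with an overlap of at least 50% of both peaks, where Foxk2 was lost and the shared peaks fell to 30. With a fold of at least 3 in both replicates, 5 genes (Foxp1, Sox5, Sox6, Sox11 and Sox21) and 7 peaks remained, and with at least 4, Sox21 alone with 1 peak. The Foxp1 peak kept at a fold of 3 was the one whose replicate 2 partner lay in an intron. Counts of genes stayed at 16 or 17 with replicate 2 intervals, basic transcripts, whole gene spans or 1 gene per peak. Each replicate on its own gave 22 genes, 85 to 89 peaks, a coding share of 30.6% to 40.4%, a GGAC share of 75.3% to 76.4% and a median fold of 2.34 to 2.46.

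The coding share was 50.0% with 50% overlap, where it no longer lay below the 3′ UTR share (40.0%), and 100% in the single peak of fold 4. It was 28.3% by the region with the most bases, 28.6% at a fold of 3 and 31.5% with replicate 2 intervals. With basic transcripts it was 34.0%, as in the main setting, and with 1 gene per peak 34.6%. The GGAC share was 90.0% with 50% overlap, 100% at folds of 3 and 4, 81.5% with replicate 2 intervals, 83.0% with basic transcripts, 86.5% with 1 gene per peak, 28.3% within 50 bp of the midpoint and 47.2% for GGACT. The median replicate 1 fold was 2.40 with 50% overlap, 3.46 and 6.10 at folds of 3 and 4, and 2.71 when replicate 2 intervals and their folds were counted. Where a fold is required, the rise in fold follows from that requirement. The cause of the other shifts was not tested. No paired analysis was possible because there was 1 condition and no test. Depth limits every statement of absence, and its size is not known from the lists.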
